A study of Rattus norvegicus with 3 samples.

Results

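The regions described here were those listed as more methylated in livers of newborn rats after a maternal low protein diet (MLP) than in control livers (C), and found in neither of the lists that involve the folate-supplemented low protein diet (MLP-F). They were chosen by the measured lists themselves: a region of the MLP vs. C list on chromosomes 1 to 20 was taken when it shared no base with any MLP vs. MLP-F region and none with any MLP-F vs. C region. This rule gave 13424 members out of 34126 MLP vs. C regions on these chromosomes, and out of 35998 regions in the whole list. The MLP vs. MLP-F list held 33730 regions and the MLP-F vs. C list 25578.

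Methylated DNA from whole livers of male Wistar rats aged 1 day was captured with a methyl-CpG binding domain protein and sequenced (MBD-seq). Dams in group C received a diet with 18% casein and 1 mg/kg folic acid, dams in group MLP 9% casein and 1 mg/kg folic acid, and dams in group MLP-F 9% casein and 5 mg/kg folic acid. Each group was 1 pooled library, from 6 animals by the labels and from 8 animals of 1 litter by the study's methods, so that diet, litter and library cannot be told apart. No test between diets was possible, and the same 3 libraries stand behind all 3 lists. Whole liver at birth holds hepatocytes and blood-forming cells, and a change in the mix of cells cannot be told apart from a change in methylation within a cell type. The lists hold no expression values, so the tissue could not be checked against cell markers.

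DNA methylation is the addition of a methyl group to cytosine, in mammals mostly at CpG sites, and it is copied when cells divide. The methyl groups come from one-carbon metabolism, in which folate carries the carbon units and the amino acids methionine, serine and glycine feed the cycle. A maternal low protein diet in the rat is a long-used model of nutritional programming, and folic acid is the supplement most often given beside it. The capture protein binds DNA with several methylated CpG sites, and the number of reads at a place therefore depends on CpG density as well as on methylation.

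Each listed region carries a score of 10 times the negative log10 of the p from the peak caller MACS, with the first-named library as treatment and the second as its control. The lowest score is 50, which corresponds to the cut-off of 1e-05. A region absent from the MLP vs. MLP-F list is 1 in which MLP did not exceed MLP-F past that cut-off, and a region absent from the MLP-F vs. C list is 1 in which MLP-F did not exceed C past it. The rule is met by an MLP-F level between those of C and MLP, but the lists hold no read counts, so no level in MLP-F was measured for any member. The opposite comparisons, with C above MLP, C above MLP-F or MLP-F above MLP, were not analysed here. The deposited lists are larger than the sets the study kept at its stricter false discovery rate, and they give no such rate per region, so presence in a list is a weaker call than the study's own. The members are called regions listed against C only.

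A member annotated to Fgf5, a fibroblast growth factor known for its role in the hair growth cycle, was also the only 1 of the 5 loci the study chose for bisulphite sequencing that met the rule. It lay at chr14:12713062-12714431 of rn4, downstream of the gene. The primer pair for that locus is shown because it marks the member for which a second assay was designed. Bisulphite turns unmethylated cytosine into uracil, and the forward primer accordingly holds no c and the reverse primer no g.
Fgf5 forward primer: agtttgtgtggtaggatttgg
Fgf5 reverse primer: tacccaacctttcaatccatc

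The Fgf5 member was 1370 bp long and had a score of 95.2. The nearest MLP-F vs. C region lay 124024 bp away, with a score of 141.03, and the nearest MLP vs. MLP-F region 131317 bp away, with a score of 94.48. Within 100 kb of it there were 3 MLP vs. C regions, with scores of 95.2, 77.71 and 57.97. All 3 were members, and neither other list held a region in that stretch. Of the other bisulphite loci, those annotated to Agtrap and Dnmt1 were in the MLP vs. MLP-F list, that of Mcm6 in the MLP-F vs. C list and that of Sfmbt1 in both.

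The members made up 39.3% of the MLP vs. C regions on chromosomes 1 to 20, with a 95% Wilson interval of 38.8% to 39.9%. Such intervals treat regions as independent draws and cover counting error only, since neighbouring regions share their libraries. The remaining 20702 regions were removed by the rule. The MLP vs. MLP-F list removed 13322 regions, 39.0% of the total, and the MLP-F vs. C list removed 7756, or 22.7%. In all, 12946 were in the MLP vs. MLP-F list only, 7380 in the MLP-F vs. C list only and 376 in both.

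The lists did not meet the MLP vs. C regions in the same way. All 13322 MLP vs. C regions that shared a base with an MLP vs. MLP-F region had exactly the same start and end there, whereas 0 of the 7756 that shared a base with an MLP-F vs. C region did. The first pair of lists has the same treatment library, MLP, and the second pair has different treatment libraries. An MLP vs. C interval was thus either listed whole against MLP-F or shared no base with that list, while its overlap with the MLP-F vs. C list varied in size.

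Few regions lay close to the edge of the rule in position, but membership also depended on the score cut-off of the other lists. The regions that removed others had median scores of 77.4 in the MLP-F vs. C list and 93.8 in the MLP vs. MLP-F list. Where only those with a score of at least 100 removed a region, there were 25845 members. The smallest overlap that removed a region was 2 bp, on chromosome 19, where a region at 11607858-11608476 with a score of 51.45 touched an MLP-F vs. C region scoring 112.67. The next smallest were 21 bp at chr14:101108872-101109483, with a score of 74.73, and 22 bp at chr17:27420855-27421458, with a score of 56.85. Overlaps of at most 100 bp removed 18 regions. The median overlap was 654 bp, which includes the whole intervals shared with the MLP vs. MLP-F list. Just inside the rule, 7 members lay within 10 bp of a region of another list, counted between facing ends. The closest was chr3:99862272-99862848, with a score of 53.44, which lay directly beside an MLP-F vs. C region scoring 70.67.

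The members were the low-scoring side of the MLP vs. C list. Their median score was 66.1 (quartiles 56.3 and 83.6), against 77.0 over all MLP vs. C regions on these chromosomes. It was 90.3 for regions also in the MLP vs. MLP-F list only, 85.4 for those in the MLP-F vs. C list only, and 286.0 for those in both. Scores of members ran from 50 to 434.4. Regions in the MLP vs. MLP-F list only reached 3100, as did those in both lists, and those in the MLP-F vs. C list only reached 1696. A higher score is a smaller p, and it rises with the number of reads as well as with the difference, so it is not an amount of methylation.

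The share of members fell at each step of score. Among the 8150 regions with scores from 50 to below 60 it was 57.9% (56.8% to 59.0%), and among the 10047 from 60 to below 80 it was 48.2% (47.3% to 49.2%). From 80 to below 100 it was 38.3% (37.0% to 39.6%), and from 100 to below 150 it was 24.9% (23.8% to 26.0%). Of 3620 regions from 150 to below 300, 245 were members, or 6.77% (6.00% to 7.63%). Of 726 regions at 300 or more, 2 were members, or 0.276% (0.0756% to 0.999%). MLP is the treatment library of both MLP lists and C the control of both C lists. The further MLP stood above C, the less room the rule left for a region in neither other list. A fall with score was thus partly set by the rule, and the intervals between steps add no support. These shares are a description of linked lists and carry no test.

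**Figure D1:**
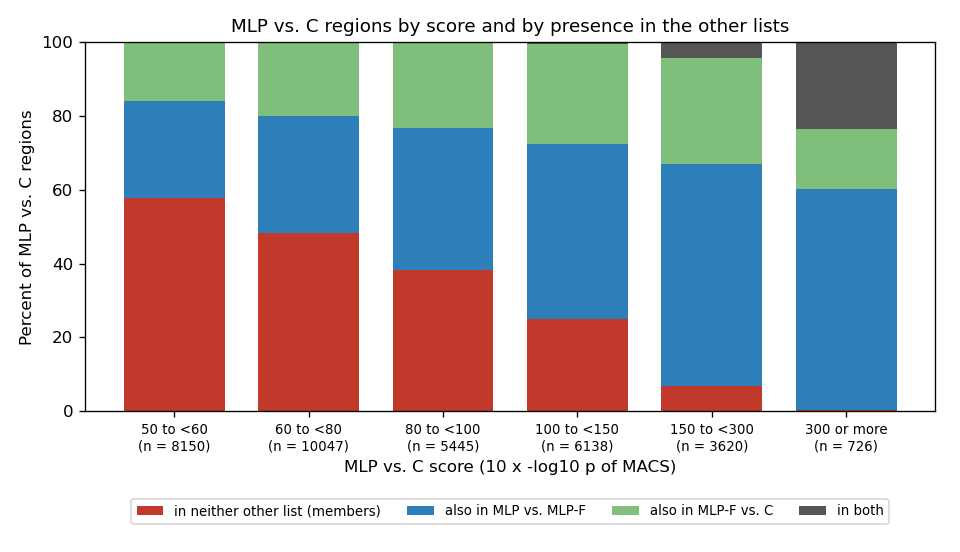
Percent of MLP vs. C regions on chromosomes 1 to 20 (y axis) in each step of MLP vs. C score (x axis, 10 times the negative log10 p), split by presence in the other lists, with n per step below each bar. The members, in red, go from 57.9% of the lowest step to 0.276% of the highest, while the share in both lists, in dark grey, reaches 23.4%.

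The regions that replaced the members at higher scores were not of 1 kind. The share in the MLP vs. MLP-F list only went from 26.2% in the lowest step to 60.2% between 150 and 300 and was 59.9% at 300 or more. The share in the MLP-F vs. C list only went from 15.9% to 28.8% and was 16.4% in the highest step, where 23.4% were in both lists. Of the members themselves, 35.2% had scores below 60 and a further 36.1% scores from 60 to below 80.

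**Figure D2:**
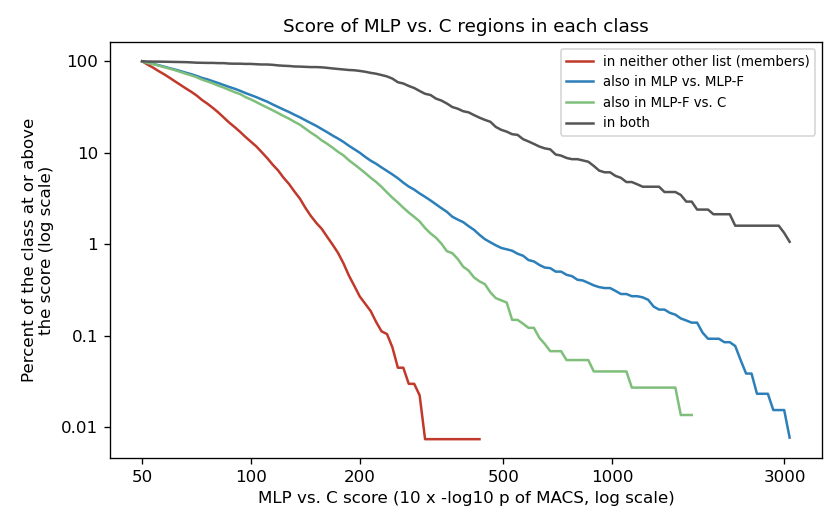
Percent of each class of MLP vs. C regions (y axis, log scale) that has the MLP vs. C score on the x axis (log scale) or a higher one. The curve of the members lies lowest throughout and ends at 434.4, and the curve of regions found in both other lists lies highest.

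Members were also somewhat shorter. Their median length was 630 bp (quartiles 490 and 820), against 670 bp over all, 724.5 bp for regions in the MLP vs. MLP-F list only and 659 bp for those in the MLP-F vs. C list only. Length and score moved together, so lengths were set side by side within steps of score. Below a score of 60 the medians were 595 bp for members, 657 bp for regions in the MLP vs. MLP-F list only and 618 bp for those in the MLP-F vs. C list only. From 100 to below 150 they were 684, 750 and 679 bp. Within these steps of score the members were thus shorter than the regions shared with the MLP vs. MLP-F list. They were close to those shared with the MLP-F vs. C list. Scores were not matched inside a step, so a remaining difference in score can be part of this. From 150 to below 300 the medians were 813, 804 and 726 bp, and members were no longer the shorter.

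By length alone, members were 45.3% of regions up to 514 bp, 43.9% from there to 670 bp, 36.3% from there to 875 bp, and 31.9% of longer regions. Below a score of 60 they were 62.1% of the shortest of these 4 length classes and 51.2% of the longest. The fall with length therefore also stood among the regions with the weakest scores. Regions of at least 2 kb were 66 of the members, or 0.492%, against 0.718% over all. They were 138, or 1.07%, of those in the MLP vs. MLP-F list only and 32, or 0.434%, of those in the MLP-F vs. C list only.

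The highest-scoring member lay at chr1:48250684-48251509, was 826 bp long and had a score of 434.4. Its nearest MLP-F vs. C region was 20672 bp away with a score of 92.87, and its nearest MLP vs. MLP-F region 27425 bp away with a score of 85.0. Within 100 kb there were 2 other MLP vs. C regions, and neither was a member. The first, with a score of 85.0, was also in the MLP vs. MLP-F list, and the second, with 474.0, met an MLP-F vs. C region scoring 132.0. The 4 MLP vs. MLP-F regions in that stretch had scores from 51.94 to 85.0 and the 5 MLP-F vs. C regions scores from 62.06 to 132.0. Strong regions of different classes thus stood within 1 neighbourhood, unlike the stretch around Fgf5.

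**Figure D3:**
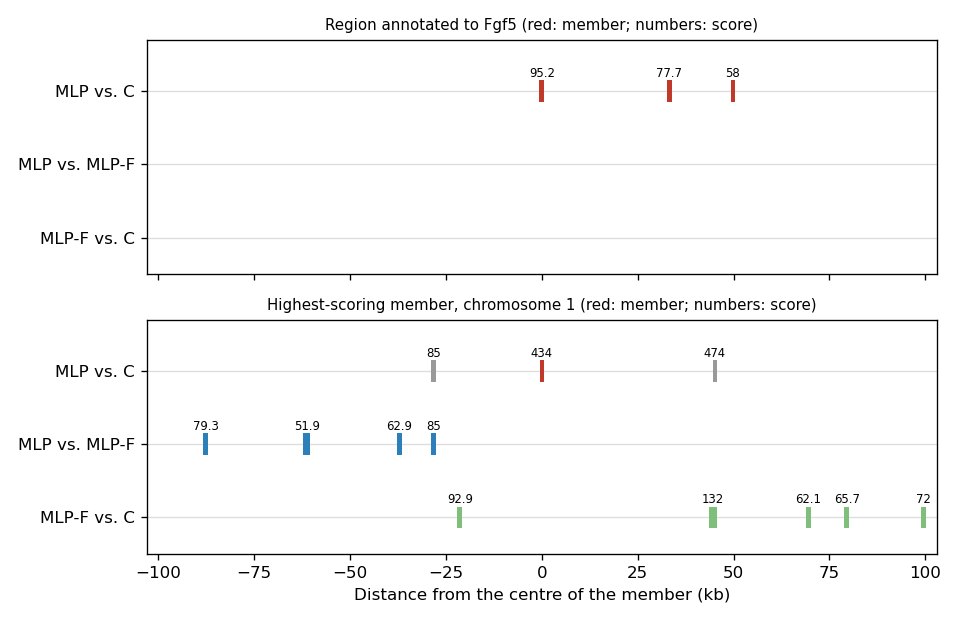
Regions of the 3 lists within 100 kb of the centre of the Fgf5 member (top) and of the highest-scoring member (bottom), with distance in kb on the x axis, 1 row per list and the score above each region. Members are red. The top panel holds 3 members and no region of the other lists, and the bottom panel holds 1 member among 3, 4 and 5 regions of the lists.

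The next highest scores were 301.43 at chr9:37716851-37717422, 297.96 at chr1:85609243-85610160, 288.86 at chr17:12804856-12805749 and 272.5 at chr17:88852301-88854609. The chromosome 1 member among these lay only 56 bp from an MLP vs. MLP-F region with a score of 61.55. The longer of the pair on chromosome 17, at 2309 bp, lay 26558 bp from the nearest MLP-F vs. C region and 182865 bp from the nearest MLP vs. MLP-F region. The other 5 of the 10 highest lay on chromosomes 16, 10, 2 and 3, with scores from 246.95 to 272.01.

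At the other end, 5 members had scores from 50 to 50.02. Among them, chr19:44718397-44720054 was long for its score, at 1658 bp, and lay 20017 bp from an MLP vs. MLP-F region with a score of 942.63. The longest member of all was chr3:59409225-59413573, at 4349 bp with a score of 127.84. It was followed by chr1:31081662-31085765, at 4104 bp with a score of 91.03, and by chr20:7660865-7664435, at 3571 bp with a score of 118.1. The longest members were thus not the highest in score.

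Members were spread over all 20 chromosomes. The share of a chromosome's MLP vs. C regions that were members ran from 36.4% (33.6% to 39.2%) on chromosome 18, where it was 420 of 1155, to 42.4% (40.2% to 44.7%) on chromosome 10, where it was 774 of 1825. For 17 of the 20 chromosomes the interval held the share over all. The others were chromosome 10 above and chromosomes 5 and 18 below, where chromosome 5 had 789 of 2147, or 36.7% (34.7% to 38.8%). The median score of members differed little between chromosomes, from 64.2 on chromosome 10 to 67.8 on chromosome 20.

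**Figure D4:**
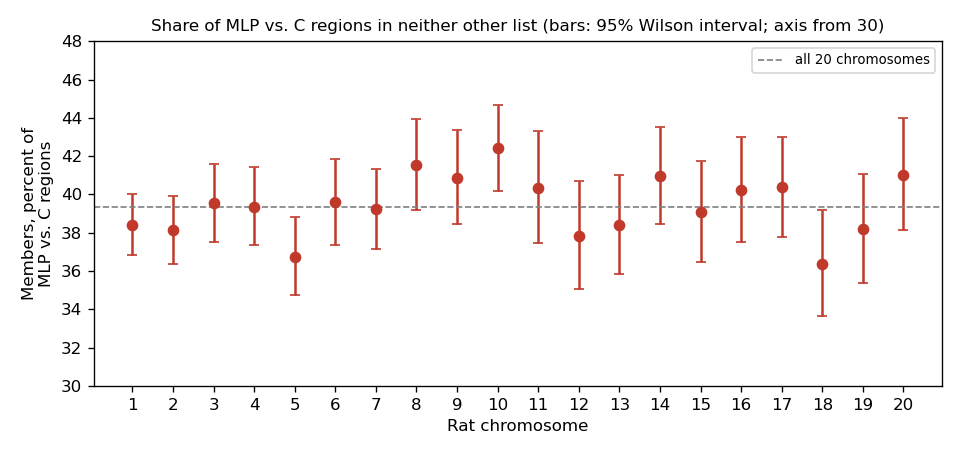
Share of MLP vs. C regions that were members, in percent (y axis, from 30), for each rat chromosome (x axis), with 95% Wilson intervals as bars and the share over all 20 as a dashed line. Points lie between 36.4% and 42.4%, and 17 of 20 bars cross the dashed line.

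The density of members per Mb varied more than their share. It was lowest on chromosome 2, at 4.19, and highest on chromosome 12, at 9.26, followed by chromosome 20 at 8.13 and chromosome 19 at 7.11. The whole MLP vs. C list differed in the same direction, with 2838 regions over 258.1 Mb of chromosome 2 and 1144 over 46.8 Mb of chromosome 12. Of the 2557 windows of 1 Mb that held an MLP vs. C region, 2405, or 94.1%, held a member, with a median of 4. The most members stood in chr4:173000001-174000000, with 26 among 49 regions and scores from 51.34 to 140.05. The next windows were chr14:8000001-9000000, with 25 of 51, and chr20:9000001-10000000, with 25 of 41. Members were 53.1%, 49.0% and 61.0% of the regions in these windows, against 39.3% over all. The windows were picked for holding the most members, so such high shares carry no weight. The first window held the member of Grin2b, a subunit of the NMDA receptor. The second window held a member upstream of Wdfy3, which takes part in the removal of protein aggregates. The Wdfy3 member lay at chr14:8821524-8822213 with a score of 123.72, and this gene was chosen after its values were seen.

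Members stood near one another to about the extent that all MLP vs. C regions did. Another MLP vs. C region lay within 10 kb for 34.7% of members and for 34.3% of all regions. It did so for 32.5% of regions in the MLP vs. MLP-F list only and for 36.6% of those in the MLP-F vs. C list only. The nearest MLP vs. C region was itself a member for 40.7% of members (39.8% to 41.5%), against 39.4% over all. For regions in the MLP vs. MLP-F list only it was a member in 37.2% (36.4% to 38.0%). Another member lay within 10 kb for 2253 members, or 16.8%, and the median distance from member to member was 43660 bp.

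The median distance from a member to the nearest region of either other list was 11030 bp. It was within 500 bp for 557 members, or 4.15%, within 5 kb for 3902, or 29.1%, within 10 kb for 6338, or 47.2%, and within 100 kb for 13115, or 97.7%. Taken list by list, the median was 22590 bp to the MLP vs. MLP-F list and 24840 bp to the MLP-F vs. C list, which has fewer regions on these chromosomes, 24305 against 31671. The MLP vs. MLP-F region was the nearer for 7074 members, or 52.7%. Over 100 kb from both lists there were 309 members, or 2.30%, with a median score of 68.2 and a highest score of 187.7. They were on 19 chromosomes, with 40 on chromosome 2, 32 on chromosome 4 and 30 on chromosome 1. The farthest was chr4:167532912-167533551, with a score of 66.1, which lay 467084 bp from the nearest MLP vs. MLP-F region and 741120 bp from the nearest MLP-F vs. C region.

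Gene names were available for a small and selected set. Each name is that of the nearest gene in the study's annotation. No distance to a gene is given here, and a member placed upstream or downstream of a gene can lie far from it. The study annotated those MLP vs. C regions that met its false discovery rate, and 1145 of them were on chromosomes 1 to 20. Of these, 262 were members, or 22.9% (20.5% to 25.4%), and all 262 had scores from 121.8 to 131.8. In that band of score there were 1132 MLP vs. C regions, of which 270, or 23.9%, were members. Annotated regions of the other classes reached scores of 3100 in the MLP vs. MLP-F list only and in both lists, and 1696 in the MLP-F vs. C list only. Shares over all annotated regions therefore set this narrow band of score beside a wider one. The annotated members were 1.95% of all members. Another 509 members had scores above the band and 12645 scores below it. Of these, genes are given here only for the Fgf5 member and for members lying between annotated intronic regions of the same gene.

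Of the 262 annotated members, 100 lay in an intron, or 38.2% (32.5% to 44.2%), and 3 touched an exon. Over all annotated regions 41.1% were intronic, and 41.5% were in each of the classes found in 1 other list. Names of small RNAs were given to 34 members, or 13.0%, against 10.7% over all annotated regions. Among them were SNORA17, a small nucleolar RNA, with 6 members, 7SK, which holds back an elongation factor of transcription, with 5, and 5S_rRNA, a ribosomal RNA, with 4. These names belong to families with many near-identical copies. As names of the nearest gene they need not lie within the region, and whether reads from 1 copy aligned to another was not tested. A name was missing for 40 members.

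Counts for genes of chromatin regulation can be read only beside the 22.9% of all annotated regions that were members. The list was written with earlier results known and was not tested. Of 28 listed genes, 20 were annotated to a region and 7 of these to a member. Their 21 regions held 8 members, 5 regions in the MLP vs. MLP-F list only, 6 in the MLP-F vs. C list only and 2 in both. The histone methyltransferase gene Smyd3 was the nearest gene of 2 members. The first, of 2065 bp, lay downstream at chr13:94641322-94643386 with a score of 129.91. The second lay upstream at chr13:94815643-94816275 with a score of 131.46. A member in an intron of Dot1l, another histone methyltransferase, at chr7:10437828-10439094 had a score of 122.9. It lay 10 bp from an MLP vs. MLP-F region with a score of 76.36, the closest among the members annotated to a gene of the lists. The nearest MLP-F vs. C region lay 27465 bp away.

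The other chromatin members were single. A region in an intron of Smarca2, an ATPase of the SWI/SNF remodelling complex, had a score of 123.87 and lay 2837 bp from an MLP-F vs. C region. In an intron of Sin3a, the scaffold of a histone deacetylase complex, a member scored 126.44 and lay 39549 bp from the nearest region of another list. Intronic members of Setbp1, which encodes a binding partner of the SET protein, and of Prdm12, a zinc finger regulator of sensory neurons, scored 122.43 and 123.62. The member downstream of Mecom, a zinc finger regulator of blood stem cells, scored 124.86.

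Genes of the synapse and of neuronal adhesion had 9 members among 41 regions. Of these regions, 23 were in the MLP vs. MLP-F list only and 9 in the MLP-F vs. C list only. Over all annotated regions, 22.9% were members, 49.3% were in the MLP vs. MLP-F list only and 26.1% in the MLP-F vs. C list only. The members of these genes were thus close to the share over all. All 38 genes of the synapse list were annotated to a region, because that list was written with the annotation's names in view. Of the 9 members 6 were intronic. The member of Grin2b, at chr4:173060358-173061194 with a score of 125.29, lay 4789 bp from an MLP vs. MLP-F region. That of Cacna1b, which encodes a calcium channel of nerve endings, scored 128.62 and lay 59 bp from an MLP vs. MLP-F region with a score of 61.82. The sorting receptor genes Sorcs1 and Sorcs2 scored 126.37 and 122.16, and the adhesion gene Cntnap2 scored 129.49. The remaining members were annotated to Syt9, Robo2, Caln1 and Chrm3, with scores from 123.97 to 129.52.

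Genes of T cells and immune regulation had 6 members among 31 regions, with 17 in the MLP vs. MLP-F list only and 8 in the MLP-F vs. C list only. This split was near that over all annotated regions, which was 22.9%, 49.3% and 26.1% in the same order. The member in an intron of Skap1, an adaptor of T cell receptor signalling, at chr10:85276966-85277286 was 321 bp long and scored 123.1. It lay 193 bp from an MLP-F vs. C region scoring 139.86, while the nearest MLP vs. MLP-F region was 23995 bp away. The next MLP vs. C region, at chr10:85277428-85277993 with a score of 213.55, was in the MLP-F vs. C list. The intronic member of Fyn, a kinase of the Src family, scored 123.84 and lay 7261 bp from an MLP-F vs. C region. The member downstream of Bcl11b, which commits progenitors to the T cell lineage, scored 122.98, and an MLP-F vs. C region scoring 367.67 lay 9467 bp away. Regions near Syk, a kinase of B cell receptor signalling, Socs1, a suppressor of cytokine signals, and the repressor Zeb1 scored 126.61, 124.04 and 125.74.

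Lists of metabolic genes were short in regions, and their members can be read only beside the 22.9% of all annotated regions. Of 30 genes of lipid and energy metabolism, 18 were annotated to a region, and their 18 regions held 2 members. One lay upstream of Vldlr, a receptor for lipoproteins rich in triglyceride, with a score of 129.36. The other lay in an intron of Abhd6, which splits monoacylglycerol, with a score of 131.46. Of 26 genes acting in the one-carbon cycle or on methylated DNA, 5 were annotated, and 1 of their 6 regions was a member. This was Phgdh, the first enzyme of serine synthesis, with a score of 127.07 at chr2:193165863-193166810, 14737 bp from an MLP-F vs. C region and 85726 bp from an MLP vs. MLP-F region.

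Insulin and growth factor signalling had 2 members among 16 regions, in introns of Ide, the insulin-degrading enzyme, with a score of 122.85, and of Ephb1, a receptor for ephrins, with 125.23. Genes of blood cells had 2 members among 9 regions, the Mecom member given above and an intronic 1 of Meis1, a homeobox regulator of blood stem cells, with a score of 124.23. Of 22 hepatocyte genes only 1 was annotated to any region, and it had no member. Against 22.9% of all annotated regions, these list counts are descriptions of few regions each and no list was tested.

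**Figure D5:**
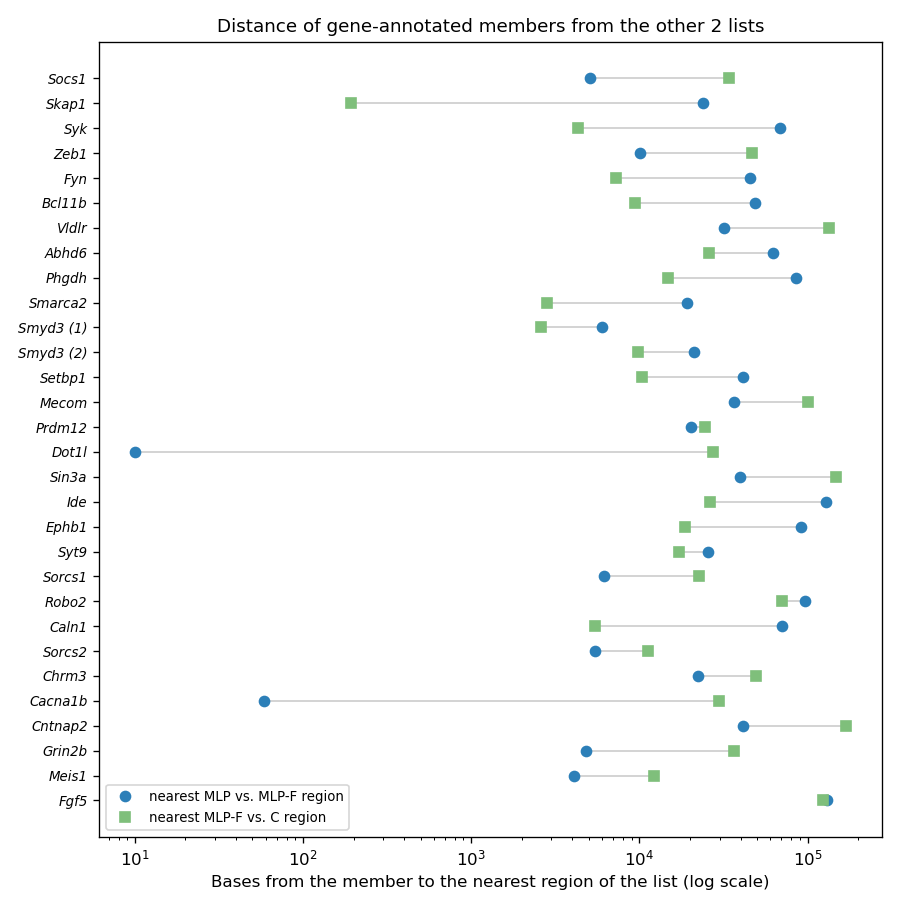
Distance in bases (x axis, log scale) from each member annotated to a gene of the lists, and from the Fgf5 member, to the nearest MLP vs. MLP-F region (blue circle) and the nearest MLP-F vs. C region (green square), 1 row per member. Dot1l at 10 bp, Cacna1b at 59 bp and Skap1 at 193 bp lie close to 1 list and far from the other, and Fgf5 lies over 100000 bp from both.

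Regions of different classes also stood within the same gene. For 18 genes the annotation placed at least 2 regions in introns, so that every MLP vs. C region between them lies in the same gene. These genes were chosen after their values were seen. They held 75 MLP vs. C regions, of which 32, or 42.7%, were members, against 39.3% of all MLP vs. C regions. The 2 shares are not like for like. Each stretch ends in annotated regions, and over all annotated regions 22.9% were members. Of the others, 25 were in the MLP vs. MLP-F list only and 18 in the MLP-F vs. C list only. A member was found in 15 of the 18.

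Aig1, whose product splits fatty acid esters of hydroxy fatty acids, was the only 1 of these 18 genes in which all regions were members. Its 4 MLP vs. C regions between chr1:8592724 and chr1:8687248 had scores of 126.13, 97.38, 55.38 and 122.85, and all 4 were members. The same stretch also held 1 MLP vs. MLP-F region and 1 MLP-F vs. C region, neither of which met an MLP vs. C region. In Bbs9, a subunit of the BBSome of cilia, 4 of 8 regions were members, with scores from 57.76 to 80.3. In Phactr1, which encodes a regulator of phosphatase and actin, 4 of 7 were members, with scores from 51.88 to 122.38. In Dym, a gene of skeletal and brain development, 3 of 7 were members, with scores from 57.9 to 122.67. Beside them, a region with an MLP vs. C score of 235.64 also met the MLP-F vs. C list. Another, with an MLP vs. C score of 348.81, was also in the MLP vs. MLP-F list. Erg, Rgl1 and Adk had regions of the other classes and no member.

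Outside the lists, the members that touched an exon included 1 at chr19:9642179-9642900 in Got2, the mitochondrial aspartate aminotransferase. It was 722 bp long, scored 122.72 and lay 444 bp from an MLP vs. MLP-F region with a score of 69.8. Map3k7, a kinase of cytokine signalling, was the nearest gene of 2 members that lay far apart. They were upstream at chr5:47910615-47911016 with a score of 130.08 and downstream at chr5:48349334-48350012 with 130.75. Metabolic enzymes among the other intronic members were Gsr, the glutathione reductase, with 122.43, and Glb1, the lysosomal beta-galactosidase, with 124.93. Fancd2, a gene of DNA repair, scored 126.61, and an MLP vs. MLP-F region with a score of 447.07 lay 39236 bp away. These genes were named after their values were seen.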

How the data were processed

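MBD-seq libraries of pooled newborn rat liver DNA, 1 for each of 3 diets, were grouped by the diet and group letter in their labels. Per the study's methods, DNA was sonicated to 500 bp, captured, sequenced as read pairs of 76 bp, and aligned to rn4 with 1 alignment kept per pair. CASAVA and Bowtie are the tools, and rn4 the build, in the submitters' processing notes, and no version of them or of MACS was found in the sources used. The deposited lists give a position and a score per region, and the authors made the score with MACS as 10 times the negative log10 of p, at a cut-off of 1e-05. They hold no counts, so the depth behind a region is unknown and no floor could be set.

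Starts were converted to 1-based positions. Overlap meant at least 1 shared bp, and a distance is the difference between facing ends. The distance code was tested on simulated regions. Gene names and places were taken from the study's annotation of its selected MLP vs. C regions, and none of its values was used. The regions named were the 10 highest and 5 lowest in score, the 5 longest, the 5 closest to another list, the 3 fullest windows of 1 Mb and the bisulphite loci. The genes named were those of 8 lists annotated to a member and those with more than 1 member. One gene is not reported here and was left out of its list's counts. Others are marked as chosen after their values were seen. The members and the gene lists were chosen with earlier results of these data known. Alternatives were other overlap rules, score thresholds and chromosomes. No sequence of a member was read. Python 3.11.15, numpy 2.4.6, pandas 2.3.3, SciPy 1.17.1 and matplotlib 3.10.9 were used.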

Additional observations from a re-analysis of the deposited data

How the results depend on the processing

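The lower scores and the spread over chromosomes rest on 1 library per diet, and intervals cover counting error only. The share of members, 39.3%, moved with the overlap rule to 37.7%, 36.5% and 27.9% where a region of another list within 500 bp, 1 kb or 5 kb also removed a region, and to 41.0% under a reciprocal overlap of 50%. Thresholds moved it most. Among MLP vs. C regions with a score of at least 100 there were 1775 members, or 16.9%, with a median score of 118.0 and a median length of 697 bp. Where only regions with a score of at least 100 in the other lists removed a region there were 25845 members, or 75.7%, with medians of 71.7 and 640 bp. With X and unplaced sequence there were 14059 members, or 39.1%. The percent of members with another within 10 kb, 16.8%, was 9.33% within 5 kb and 53.7% within 50 kb. No paired analysis was possible because each diet had 1 pooled library and no result came from a test.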

Other observations

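Outside chromosomes 1 to 20, 635 MLP vs. C regions met the same overlap rule. On the X chromosome they were 276 of 938 regions, or 29.4% (95% Wilson interval 26.6% to 32.4%), and the upper bound of that interval lay below the lower bounds of all 20 numbered chromosomes. The X regions were instead in the MLP vs. MLP-F list only for 56.5% and in the MLP-F vs. C list only for 12.8%. On unplaced sequence 359 of 934 regions, or 38.4% (35.4% to 41.6%), met the rule. All 3 pools were from males by the labels, and these values carry no test.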
